A study of Mus musculus with 6 samples.

Results

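The 36 genes described here encode the enzymes that make cholesterol and fatty acids and the proteins that control and carry sterols. They were chosen by name, with earlier results of these data known. Every gene of the list whose symbol is paired with a probe on the array was taken. Of the 36 genes, 33 had a probe, among 16593 genes named on the array, and 32 had a signal high enough to be tested, among 7725 genes tested. The list has 3 arms, with 17 enzymes of sterol synthesis, 8 genes of sterol control and transport, and 11 genes of fatty acid synthesis. GIF-14 cells, the 1 line used, are fetal gastric epithelial cells of the genotype Runx3-/-;p53-/-, so the controls carry both deletions too. Its epithelial, pre-EMT fraction (EMT, the epithelial-to-mesenchymal transition) was left untreated (3 cultures) or given recombinant TGF-β1 at 2.5 ng/ml for 24 h (3 cultures), in medium with serum, which also supplies lipids. The comparison asks which transcripts changed within a day of TGF-β1 in cells that were pre-EMT when the treatment began.

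Cells make cholesterol from acetyl-CoA by way of mevalonate, farnesyl diphosphate, squalene and lanosterol, and they make fatty acids from the same acetyl-CoA, which they then lengthen and desaturate. Both routes are driven by the SREBP transcription factors, which are held in the endoplasmic reticulum by Scap and the Insig proteins while sterols are plentiful, and which move to the Golgi, are cut and enter the nucleus when sterols run low. The SREBP encoded by Srebf2 is known mainly for the sterol genes and the main product of Srebf1 for the fatty acid genes, and both bind sterol regulatory elements in promoters next to sites of NF-Y, the factor that binds the CCAAT box.

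Signals are log2 of the brightness of a probe after quantile normalization, and a change is the mean of the TGF-β1 arrays minus the mean of the untreated arrays on this log2 scale. A gene was called changed at an adjusted p under 0.05 in limma, with Benjamini-Hochberg adjustment over all genes tested. The arrays detected 11381 to 11797 of 25697 probes (detection p under 0.05). Arrays of 1 group correlated with r between 0.980 and 0.996 and arrays of different groups with r between 0.935 and 0.954. Before normalization, untreated arrays 1 to 3 had a mean signal of 519, 518 and 435 and TGF-β1 arrays 1 to 3 of 406, 439 and 519. The probe of Runx3 was not above background on any array. All 7 epithelial markers with a probe were detected, among them Krt8 and Cdh1, while 6 of 7 fibroblast markers were detected on no array. The seventh, Col1a1, which encodes a collagen I chain, was detected on 0 untreated and 3 TGF-β1 arrays, with log2 signals of 6.46, 6.57 and 6.63 against 7.84, 7.58 and 7.73, and was called higher (limma adjusted p = 3.7e-05). The summed signal of the fibroblast markers was 531 to 579 in untreated and 649 to 692 in TGF-β1 cultures. The summed signal of the epithelial markers was 39794 to 43271 in untreated and 31468 to 37427 in TGF-β1 cultures. Of these markers, Krt19 (-1.59), Elf3 (-1.23) and Cldn3 (-0.48) were called lower and Krt18 (0.47) higher. Krt8, Cdh1 and Cldn7 were not called. Krt19 was the brightest of the 3 that fell, and the median change of the 7 markers was -0.08. The part of these shifts in the results that follow was not tested. In these bulk samples fewer cells of a type and less RNA per cell cannot be told apart.

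As examples of promoter sequence, a stretch just upstream of the start is printed for 6 genes that fell. Of these, 3 are from the late sterol pathway, 1 from its early part and 2 from the fatty acid arm. Whether the promoters bear on the changes was not tested. The sequences are RefSeq promoters of build GRCm38.p6, read 5′ to 3′ on the strand of the gene, and the capitals mark each CCAAT box (CCAAT, or ATTGG on the other strand) and, in Hmgcs1, the match to the sterol regulatory element TCACNCCAC. The Hmgcs1 stretch is chr13:119690171-119690350 on the plus strand, Lss is chr10:76531505-76531604 on the plus strand, and Cyp51 is chr5:4104698-4104797 on the minus strand. The Ebp stretch is chrX:8193513-8193612 on the minus strand, Acss2 is chr2:155517943-155518042 on the plus strand, and Elovl5 is chr9:77917265-77917364 on the plus strand.
Hmgcs1: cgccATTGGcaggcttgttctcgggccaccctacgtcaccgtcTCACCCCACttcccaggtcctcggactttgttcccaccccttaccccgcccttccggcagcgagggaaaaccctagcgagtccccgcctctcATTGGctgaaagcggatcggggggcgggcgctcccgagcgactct
Lss: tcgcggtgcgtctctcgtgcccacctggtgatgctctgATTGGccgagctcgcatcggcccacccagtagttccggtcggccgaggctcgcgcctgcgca
Cyp51: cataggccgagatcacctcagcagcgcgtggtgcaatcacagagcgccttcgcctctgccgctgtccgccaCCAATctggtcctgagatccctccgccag
Ebp: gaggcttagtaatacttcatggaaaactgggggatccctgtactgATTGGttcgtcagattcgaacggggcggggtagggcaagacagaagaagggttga
Acss2: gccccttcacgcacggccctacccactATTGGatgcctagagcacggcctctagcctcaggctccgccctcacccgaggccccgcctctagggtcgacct
Elovl5: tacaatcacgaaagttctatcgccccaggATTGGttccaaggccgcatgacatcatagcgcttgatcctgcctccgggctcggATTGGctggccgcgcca

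In Hmgcs1 the sterol regulatory element began 137 bases before the annotated start and lay between CCAAT boxes at 176 and 45 bases before it. In the printed stretches, the CCAAT box stood 62 bases before the start of Lss, 29 before that of Cyp51, 55 before that of Ebp and 73 before that of Acss2. Upstream of the printed stretch, Ebp had a further box 170 bases before its start, and Hmgcs1 had one at 237. Elovl5 had CCAAT boxes 71 and 17 bases before its start. RefSeq promoters, taken from 250 bases before to 50 bases after each start, were matched to 28 of the 36 genes, 6 of them with more than 1 start. A CCAAT box on either strand was present in 24 of these 28 genes, against 44.0% of the 6340 tested genes with a promoter and 37.4% of all 32851 promoters. It was present in 9 of 10 genes that fell and in 13 of 16 that were not called, a difference that was not tested. The letters TCACNCCAC, searched on both strands, were found in Hmgcs1 and in no window of the other genes, against 1.34% of the tested genes and 1.24% of all promoters. The GC box GGGCGG, on either strand, was in 23 of the 28 genes, against 70.6% of the tested genes and 35.7% of all promoters. These matches are descriptions of letters in a window, and the window of Elovl6, one of the genes that fell most, held none of the 3 motifs.

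After TGF-β1, 13 of the 32 tested genes fell and 0 rose, with falls in each of the 3 arms, and the largest were those of Acss2, Stard4, Elovl6 and Insig2. In all genes tested, 18.4% were called lower and 17.3% higher. The share of the list that fell (40.6%) was above this background and the share that rose was below it. Since the list was made with earlier results of these data known, this comparison is a description and not a test. At an unadjusted p under 0.05, 16 of the 32 genes passed, close to the share of all genes tested (3482 of 7725). The median change of the 32 genes was -0.25 (log2), against 0.03 over all genes tested. Of the 19 genes that were not called, 14 had a change below 0 and 5 above 0. Called or not, 27 of the 32 genes had a change below 0, against 3553 of the 7725 genes tested. This too is a description, and several of the uncalled changes were near 0. The groups did not overlap, with all TGF-β1 arrays lower, in 16 of the 32 genes (background 23.7%), and with all TGF-β1 arrays higher in 1, Acly (background 24.6%). For 1 gene and 3 arrays a group, the smallest p of an exact permutation test is 0.1, so the calls rest on the spread that limma shares across genes.

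**Figure D1:**
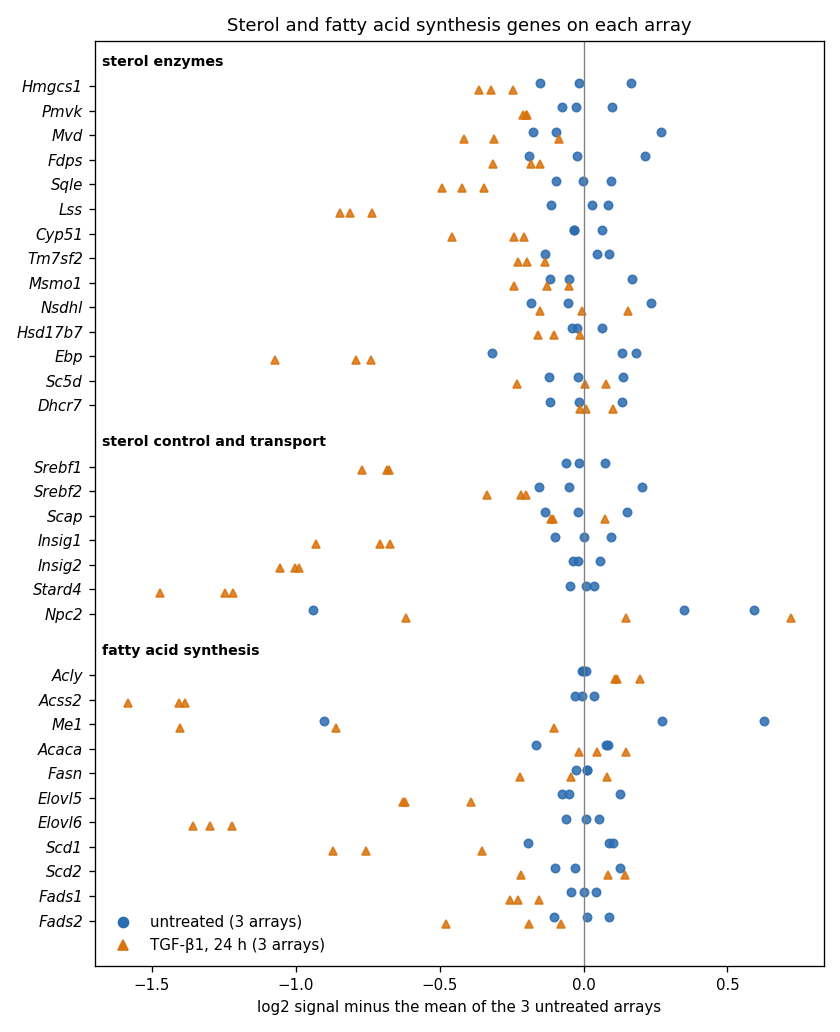
Log2 signal of each tested gene on each array, as the difference from the mean of the 3 untreated arrays (horizontal axis), with untreated arrays as circles and TGF-β1 arrays as triangles, grouped by arm. The triangles of Acss2, Stard4, Elovl6 and Insig2 lie about 1 log2 unit or more to the left of the circles, and those of Npc2 and Me1 are spread over more than 1 unit in both groups.

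Among the genes that control the SREBPs, both Insig genes and Srebf1 fell, while Srebf2 and Scap were not called. Insig2, which like Insig1 holds the Scap-SREBP complex in the endoplasmic reticulum, had log2 signals of 10.38, 10.36 and 10.45 in untreated and 9.39, 9.41 and 9.34 in TGF-β1 cultures. Each group spanned less than 0.1, and the groups lay far apart. The change was -1.01 ± 0.08 (SE, n = 3 and 3; limma adjusted p = 2.1e-05), which left 49.5% of the untreated signal. Insig1, the Insig that is itself a textbook SREBP target, had signals of 9.19, 9.09 and 9.29 against 8.52, 8.48 and 8.26. Every TGF-β1 array was below every untreated one, with a change of -0.77 ± 0.10 (SE; limma adjusted p = 0.00052).

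Srebf1, which encodes SREBP-1, had log2 signals of 8.51, 8.56 and 8.65 in untreated and 7.80, 7.90 and 7.89 in TGF-β1 cultures. The groups did not overlap, and the change was -0.71 ± 0.08 (SE; limma adjusted p = 0.00025), or 61.2% of the untreated signal. Srebf2, which encodes SREBP-2, had signals of 10.30, 10.19 and 10.55 against 10.15, 10.01 and 10.13. Here too every TGF-β1 array lay below every untreated one, but by little, and the change of -0.25 ± 0.11 (SE) did not pass (limma adjusted p = 0.11). Scap, the escort protein that senses sterols, overlapped between groups, with a change of -0.05 and a 95% interval from -0.28 to 0.19.

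Of the 2 tested carriers of sterols, Stard4 fell and Npc2 was not called, and the difference between them was not tested. Stard4, a soluble protein that moves cholesterol between membranes, had log2 signals of 9.95, 9.98 and 9.90 in untreated and 8.47, 8.70 and 8.73 in TGF-β1 cultures. All TGF-β1 arrays were more than 1 unit below all untreated arrays, with a change of -1.31 ± 0.09 (SE; limma adjusted p = 1.5e-05) and 40.3% of the untreated signal left. Npc2, which hands cholesterol out of the lysosome, had signals of 9.43, 9.18 and 7.89 against 8.22, 8.98 and 9.55. The groups overlapped across their whole range, and the change was 0.08 ± 0.43 (SE). Npc1, the membrane partner of Npc2, was not analysed here. In this arm 4 of 7 tested genes fell and 0 rose (background 18.4% and 17.3%), with a median change of -0.71.

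Of the enzymes of sterol synthesis, 5 fell, and the largest falls were those of Ebp and Lss. From squalene to cholesterol 4 of 10 tested genes fell, and from acetyl-CoA to farnesyl diphosphate 1 of 4 did. Over all genes tested, 18.4% were called lower. The difference between these parts was not tested, and each held 1 of the least firm calls, Cyp51 and Hmgcs1, described below. Ebp, the isomerase that moves a double bond in the sterol ring, had log2 signals of 11.49, 11.54 and 11.04 in untreated and 10.29, 10.57 and 10.62 in TGF-β1 cultures. The groups did not overlap, although untreated replicate 3 lay below the other untreated arrays, and the change was -0.87 ± 0.15 (SE; limma adjusted p = 0.0025). Lss, which folds squalene epoxide into lanosterol, the first sterol of the route, had signals of 9.73, 9.79 and 9.59 against 8.89, 8.97 and 8.86. The groups were well apart, with a change of -0.80 ± 0.09 (SE; limma adjusted p = 0.00019) and 57.6% of the untreated signal left.

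Sqle, the squalene epoxidase and a rate-limiting enzyme of the late pathway, had log2 signals of 12.22, 12.12 and 12.32 in untreated and 11.80, 11.87 and 11.73 in TGF-β1 cultures. The change was smaller than in Lss and again without overlap, at -0.42 ± 0.09 (SE; limma adjusted p = 0.0064). Hmgcs1, a cytosolic synthase early in the mevalonate route, had log2 signals of 14.10, 13.96 and 14.28 against 13.87, 13.79 and 13.75. Its groups lay close to each other, and the change was -0.31 ± 0.10 (SE; limma adjusted p = 0.042). Cyp51, which removes a methyl group from lanosterol, had signals of 11.47, 11.47 and 11.56 against 11.29, 11.26 and 11.04, with a change of -0.30 ± 0.09 (SE; limma adjusted p = 0.036).

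The calls of Hmgcs1 and Cyp51 are the least firm of the 13. For Hmgcs1 the adjusted p in limma rose to 0.096 without untreated replicate 1, 0.088 without untreated replicate 3, and 0.073, 0.11 and 0.11 without TGF-β1 replicates 1, 2 and 3. For Cyp51 it rose to 0.079, 0.081 and 0.078 without untreated replicates 1, 2 and 3, and to 0.068 and 0.10 without TGF-β1 replicates 2 and 3. The other 11 genes that fell stayed called in all 15 settings that were tried. Among these, Sqle and Scd1 came close to the threshold with replicate number in the model (limma adjusted p = 0.048 and 0.047). A second probe of Sqle, described below, did not pass.

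The other 9 tested sterol enzymes were not called. In the mevalonate part, Pmvk (phosphomevalonate kinase) changed by -0.20 with groups that did not overlap (limma adjusted p = 0.089). Mvd, the decarboxylase that makes isopentenyl diphosphate, had a change of -0.27 (limma adjusted p = 0.17). Fdps, which joins the isoprene units into farnesyl diphosphate, had a change of -0.22 (limma adjusted p = 0.18). All these values were below 0 and of a size that this design could not separate from the spread.

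After lanosterol, the sterol reductase Tm7sf2 had a change of -0.19, the demethylating oxidase Msmo1 of -0.14, and the reductase Hsd17b7, which acts with it, of -0.09. The dehydrogenase of the same demethylating complex, Nsdhl, had 4 tested probes, and none passed. The desaturase Sc5d had a change of -0.05 (95% interval -0.30 to 0.21), and Dhcr7, the reductase that completes cholesterol, of 0.03 (95% interval -0.18 to 0.24). The late pathway therefore held both Ebp, whose change was the largest of the sterol enzymes, and neighbours whose intervals spanned 0. Idi1, the isomerase of isopentenyl diphosphate, was too dim to test, with detection on 2 of 3 untreated and 1 of 3 TGF-β1 arrays. Its log2 signals of 6.91, 6.88 and 6.62 against 6.47, 6.54 and 6.90 overlapped. Mvk (mevalonate kinase) and Fdft1 (squalene synthase) were not analysed here. In this arm 5 of 14 tested genes fell and 0 rose (background 18.4% and 17.3%), with a median change of -0.21.

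**Figure D2:**
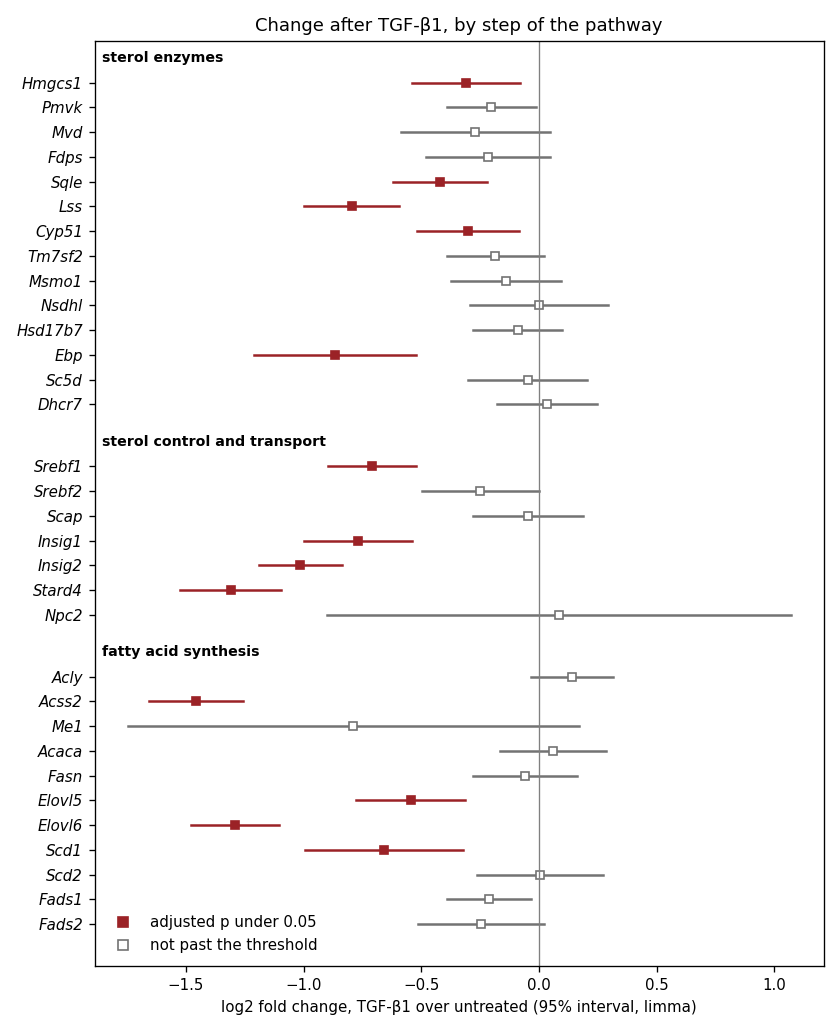
Change of each tested gene after TGF-β1 (squares, log2, TGF-β1 minus untreated) with its 95% interval from limma (lines), grouped by arm. Within an arm the genes stand in the order of the list, which is not strictly an order of steps. Squares are filled where the adjusted p was under 0.05. All 13 filled squares lie left of 0, from -0.30 for Cyp51 to -1.46 for Acss2.

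In the fatty acid arm, a supplier of acetyl-CoA, both elongases and 1 of 4 desaturases fell, while the carboxylase and the synthase that build the chain were not called. Acss2, which makes acetyl-CoA from acetate, had log2 signals of 9.42, 9.47 and 9.40 in untreated and 8.04, 8.02 and 7.85 in TGF-β1 cultures. All TGF-β1 arrays were more than 1 unit lower, and the change of -1.46 ± 0.09 (SE; limma adjusted p = 5.1e-06) left 36.4% of the untreated signal. It was the largest change of the list and stood at place 134 of 7725 tested genes ordered from the most decreased. Acly, which makes acetyl-CoA from citrate, had signals of 12.68, 12.67 and 12.69 against 12.79, 12.87 and 12.80. It was the only tested gene of the list with every TGF-β1 array above every untreated array, but the change of 0.14 ± 0.08 (SE) did not pass (limma adjusted p = 0.19).

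Elovl6, which lengthens palmitate to stearate, had log2 signals of 10.40, 10.44 and 10.32 in untreated and 9.17, 9.09 and 9.03 in TGF-β1 cultures. The groups were more than 1 unit apart, with a change of -1.29 ± 0.08 (SE; limma adjusted p = 7.5e-06) and 40.8% of the untreated signal left. Elovl5, which lengthens polyunsaturated chains, had signals of 12.56, 12.77 and 12.59 against 12.01, 12.25 and 12.02. It fell less, by -0.54 ± 0.10 (SE; limma adjusted p = 0.0035), again without overlap. Scd1, a desaturase that makes monounsaturated chains, had signals of 11.09, 11.10 and 10.81 against 10.13, 10.24 and 10.65. Its TGF-β1 replicate 3 came near untreated replicate 3, and the change was -0.66 ± 0.15 (SE; limma adjusted p = 0.0086).

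Acaca, the acetyl-CoA carboxylase that commits carbon to fatty acids, had a change of 0.06 (95% interval -0.17 to 0.29). Fasn, the fatty acid synthase, had a change of -0.06 (95% interval -0.28 to 0.16), and its probe was close to background, with log2 signals of 6.53 to 6.83 and detection on 3 untreated and 2 TGF-β1 arrays. For such a dim probe a true change is understated, since background is part of the signal. The desaturase Scd2 had a change of 0.004 (95% interval -0.26 to 0.27), and of -0.0042 when arrays were scaled to one mean instead of quantile-normalized. Fads1 and Fads2, the desaturases of polyunsaturated fatty acids, had changes of -0.21 (limma adjusted p = 0.067) and -0.25 (limma adjusted p = 0.14), and only the groups of Fads1 did not overlap. In this arm 4 of 11 tested genes fell and 0 rose (background 18.4% and 17.3%), with a median change of -0.25.

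**Figure D3:**
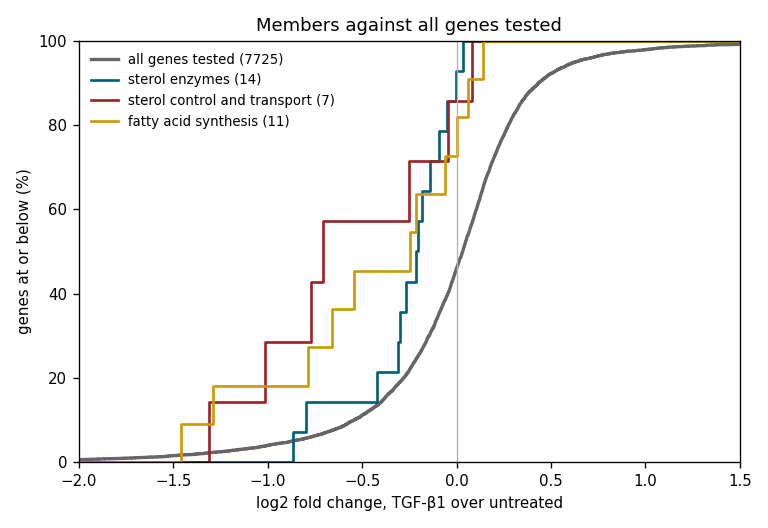
Share of genes (vertical axis, percent) with a change at or below the value on the horizontal axis (log2, TGF-β1 minus untreated), for each arm and for all 7725 genes tested. The curves of the 3 arms lie left of the curve of all genes over most of the range, with medians of -0.71 for sterol control and transport, -0.25 for fatty acid synthesis and -0.21 for sterol enzymes, against 0.03.

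The lower values were present on each treated array. Taken as the median over an arm of the distance from the untreated mean, the sterol control and transport genes lay at -0.67, -0.67 and -0.68 on the TGF-β1 arrays. The sterol enzymes lay at -0.19, -0.24 and -0.26, and the fatty acid genes at -0.15, -0.26 and -0.23. On the untreated arrays the same medians lay between -0.04 and 0.08. Of the 32 tested genes, 4 had at most 50% of the untreated signal left (a change of -1 or below), as did 309 of the 7725 genes tested.

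Me1, the malic enzyme that supplies NADPH for fatty acid synthesis, was not called despite a change of -0.79 ± 0.42 (SE; limma adjusted p = 0.18). Its log2 signals were 10.61, 10.25 and 9.08 in untreated and 8.58, 9.12 and 9.88 in TGF-β1 cultures, so untreated replicate 3 and TGF-β1 replicate 3 lay within the range of the other group. A second probe of Me1, with signals of 9.98, 9.45 and 7.81 against 7.31, 8.25 and 8.67, put the 6 arrays in the same order and did not pass either (limma adjusted p = 0.20). Me1 and Npc2 were highest on the same 3 arrays, untreated replicates 1 and 2 and TGF-β1 replicate 3, which were also the arrays with the highest mean signal before normalization (518 to 519, against 406 to 439 on the others). Their SEs of 0.42 and 0.43 were the highest of the list, and no other tested gene exceeded 0.151. Untreated replicate 3 was the lowest untreated and TGF-β1 replicate 3 the highest treated array in 8 of the 32 tested genes, which were Me1, Npc2, Ebp, Scd1, Stard4, Tm7sf2, Msmo1 and Scap. The order was the reverse in 9, which were Hmgcs1, Mvd, Fdps, Sqle, Cyp51, Nsdhl, Insig1, Insig2 and Fads2. These orders were not counted over all genes tested. Over all tested probes, untreated replicate 3 and TGF-β1 replicate 3 deviated from their group means in opposite ways (r = -0.78). Such opposed values were therefore not particular to the list.

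With array mean signal added to the limma model, the change of Me1 was -0.31 (adjusted p = 0.057) and that of Npc2 was 0.57 (adjusted p = 0.0055), while Ebp and Scd1 stayed lower at -0.73 and -0.51. Without untreated replicate 3, Me1 passed in limma with a change of -1.24 (adjusted p = 0.017).

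**Figure D4:**
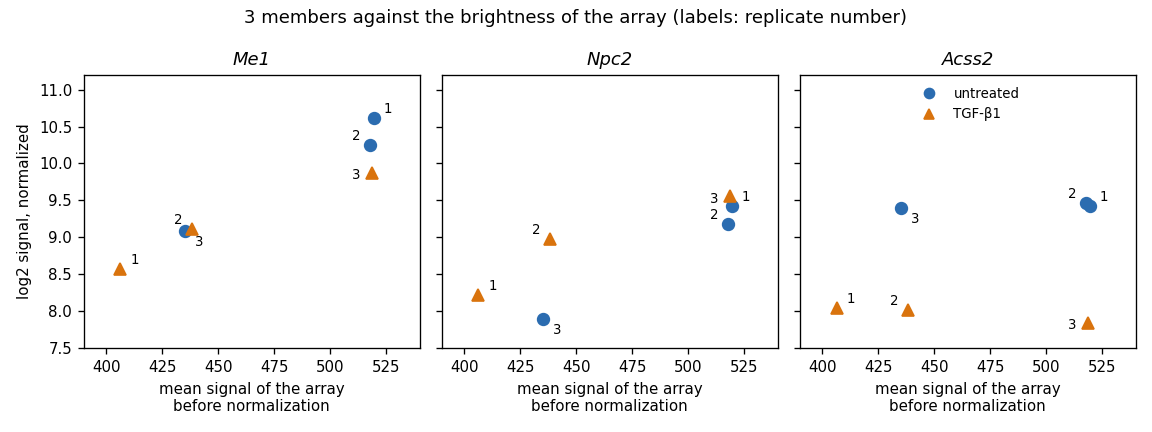
Normalized log2 signal (vertical axis) of Me1, Npc2 and Acss2 on each array against the mean signal of that array before normalization (horizontal axis), with replicate numbers beside the points. Me1 and Npc2 are highest on the 3 brightest arrays, whichever group these belong to, while Acss2 separates the groups at either brightness, with 9.40 to 9.47 in untreated and 7.85 to 8.04 in TGF-β1 cultures.

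Of the 33 genes with a probe, 7 had more than 1, and the brightest tested probe stood for the gene. For both Insig genes a second tested probe gave a like fall, -0.87 for Insig1 (limma adjusted p = 0.00021) and -0.89 for Insig2 (limma adjusted p = 0.00086). For Sqle the probes parted. The brighter passed at -0.42, and the dimmer, with log2 signals of 10.26, 10.21 and 10.56 against 10.27, 10.20 and 9.86, overlapped between groups and did not pass (-0.23, limma adjusted p = 0.24). The second probes of Srebf1 and Acss2 and 1 further probe of each Insig gene were detected on no array, and the remaining Insig1 probe, detected on 2 arrays of each group, was not tested.

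**Figure D5:**
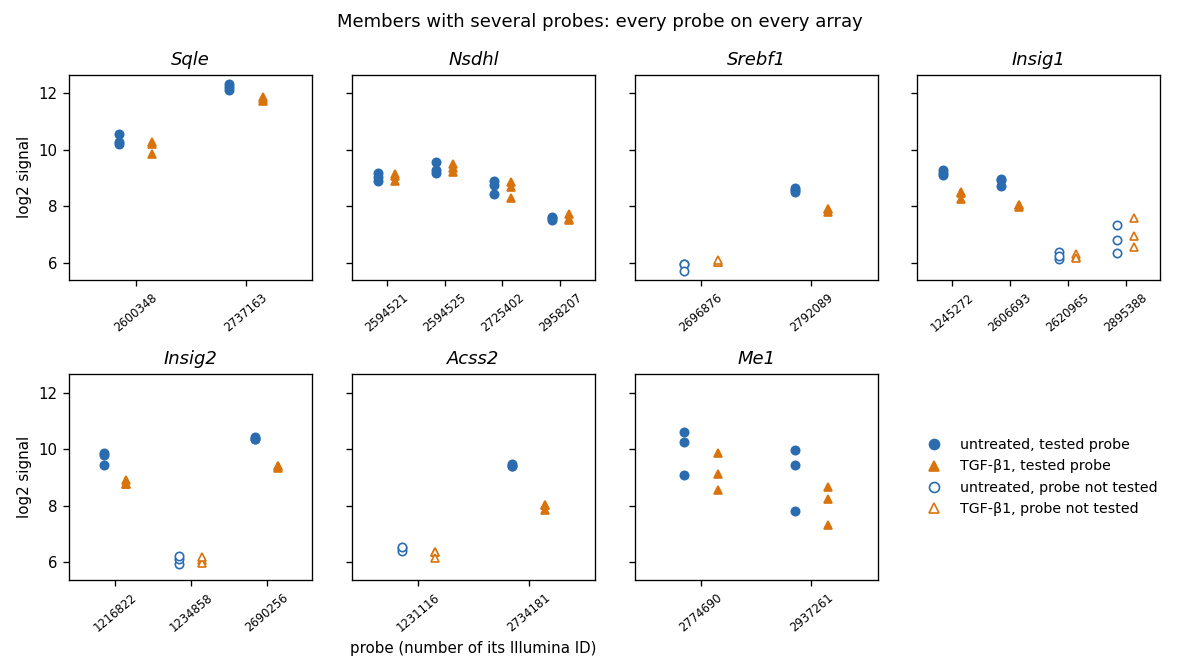
Log2 signal (vertical axis) of every probe of the 7 genes with more than 1 probe, on the 3 untreated arrays (circles) and the 3 TGF-β1 arrays (triangles), with probes that were not tested drawn open. Both tested probes of Insig1 and of Insig2 show lower triangles, no probe of Nsdhl has its groups apart, and 4 of the 5 untested probes were detected on no array.

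Genes of the list that bear like names were set against each other by the difference of their changes, in 5 pairs with an exact two-sided permutation test, for which 0.1 is the smallest p possible. The change of Srebf1 lay below that of Srebf2 (difference -0.46), that of Scd1 below Scd2 (-0.66) and that of Elovl6 below Elovl5 (-0.75), while the change of Insig1 lay above that of Insig2 (0.24 by the brightest probes). The Insig difference depended on the probe, since the second tested probes changed by -0.87 and -0.89 and the means of the tested probes by -0.82 and -0.95. In each of these 4 pairs, by the brightest probes, the differences on the 3 TGF-β1 arrays lay apart from those on the 3 untreated arrays (exact permutation p = 0.1, adjusted p = 0.125 over the 5 pairs). Fads1 and Fads2 differed by 0.04, with overlap (exact permutation p = 0.7). The design was too small for any of these differences to pass.

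Other genes of the pathways, outside the 36, were counted from lists made by function. Over all genes tested, 18.4% were called lower and 17.3% higher. Few genes of each list were tested, so the counts were not compared with these shares by a test. Of 4 tested genes among other sterol synthesis and SREBP genes, 2 fell and 0 rose. These were the erlins Erlin2 (-0.40) and Erlin1 (-0.27), endoplasmic reticulum proteins that take part in the turnover of sterol-regulated enzymes. Of 4 tested genes of sterol uptake, efflux and esterification, 3 fell, namely Nceh1 (-0.98) and Lipa (-0.92), which both free cholesterol from its esters, and Nr1h3 (-0.45), the oxysterol receptor LXRα. The median of this group was -0.69.

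Among 12 tested genes of other fatty acid synthesis and activation, 4 fell and 1 rose, with a median change of 0.007. The long-chain acyl-CoA synthetase Acsl5 fell the most, from log2 signals of 13.20, 13.21 and 13.22 to 12.09, 12.27 and 11.97 (-1.10 ± 0.10, SE; limma adjusted p = 4.9e-05). Dgat2, which makes triglyceride, fell by 0.62 on the log2 scale and Acsl4, another acyl-CoA synthetase, by 0.46. The gene that rose was Hacd3, a dehydratase of chain elongation, named after its value was seen, at 0.29 ± 0.08 (SE; limma adjusted p = 0.024). Other tested genes of chain elongation were not called, namely the elongase Elovl1 (-0.07) and the reductases Hsd17b12 (0.22) and Tecr (0.16).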

How the data were processed

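RNA of GIF-14 cells, untreated or given TGF-β1 (3 cultures each, which the paper calls biological triplicates), was amplified, biotin-labelled and hybridized to Illumina MouseRef-8 version 2 BeadChips. The deposited non-normalized intensities are the mean bead signal of 25697 probes, without background subtraction, and the deposited detection p-values set each probe against the negative control beads. The authors also deposited intensities normalized in GenomeStudio 1.9 (quantile and average normalization), which served as an alternative.

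The non-normalized intensities were quantile-normalized and transformed to log2 here (limma 3.58.1, R 4.3.3). Platform symbols named 23978 probes, and 1719 had none. Testing required a detection p under 0.05 on every array of at least 1 group, and the brightest tested probe stood for a gene. Groups were compared by lmFit and eBayes with Benjamini-Hochberg adjustment over 7725 genes and a threshold of 0.05. The permutation-based test of the methods (SAM) was not run. P-values measure the spread between these cultures, and 3 arrays a group limit the precision. The code was tested on simulated data.

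All 36 genes are named. The called genes with the largest changes, up to 6 an arm, and Srebf1, Srebf2, Insig1 and Insig2 have their value on every array, and up to 3 called genes of each further list are named. Values on every array of other genes were added after they were seen. The genes and lists were chosen with earlier results of these data known. Intervals are 95% intervals from limma. The promoters and their motifs come from RefSeq (GRCm38.p6).

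Alternatives changed the background correction (neqc), the normalization (scaling, or the authors' values), the detection filter (none, or p under 0.01 on 6 of 6 arrays), the probe summary (mean of tested probes), the model (replicate block, array mean signal as covariate) and the prior (intensity trend, robust), or left out 1 array.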

Additional observations from a re-analysis of the deposited data

How the results depend on the processing

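Of the 13 genes called lower, 11 stayed called in all 15 settings, and 0 changed direction. Hmgcs1 lost its call with neqc (adjusted p = 0.071 in limma), with no detection filter (0.053) and with the replicate block (0.12), and Cyp51 with neqc (0.061) and with the replicate block (0.12), besides the left-out arrays named above; the cause was not tested. Sterol enzymes called lower numbered 3 instead of 5 with neqc and with the replicate block. With the replicate block 1733 genes changed instead of 2755, and 750 rose instead of 1335. Arrays of the same number did not deviate together (r of deviations -0.67, 0.07 and -0.78), so the numbers are not taken as pairs. Arrays of different number did across groups (untreated 3 with TGF-β1 1, r = 0.78; TGF-β1 3 with untreated 1, 0.70, and untreated 2, 0.57). A BeadChip block could not be fitted without BeadChip names in the files. The mean signal as covariate raised the calls over all genes, to 3782 changed instead of 2755 and 1882 lower instead of 1420. Within the list it added Mvd, Fdps, Srebf2, Fads1 and Fads2 to the lower calls. It also added Npc2 as 1 higher call among sterol control and transport genes. Pmvk and Fads1 passed with scaling, and Fads1 with the intensity trend. The median of sterol control and transport was -0.90 with neqc, and that of fatty acid synthesis was -0.40 with detection p under 0.01 on all 6 arrays and -0.31 with the covariate. Leaving out 1 array at a time gave 2056 to 2894 changed genes, 908 to 1471 higher and 1128 to 1423 lower, with fewest without untreated replicate 2 (2056) and untreated replicate 1 (908 higher). It gave 3 to 4 lower sterol enzymes (median -0.28 to -0.20), 4 lower genes of sterol control and transport (median -0.74 to -0.66) and 4 to 5 lower fatty acid genes (median -0.33 to -0.21). Signs turned only in genes that were not called. Without 1 array at a time their changes spanned -0.093 to 0.11 (Nsdhl), -0.11 to 0.043 (Sc5d), -0.025 to 0.10 (Dhcr7), -0.11 to 0.029 (Scap), -0.39 to 0.43 (Npc2), -0.024 to 0.10 (Acaca), -0.14 to 0.020 (Fasn) and -0.066 to 0.11 (Scd2), and other settings turned Scap (0.025 with the covariate) and Scd2 (-0.0042 with scaling). Dim probes such as those of Fasn and Idi1 limit what can be seen of these genes.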
